A study of Mus musculus with 6 samples.

Results

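Subunits of oxidative phosphorylation were followed in T cells sorted from mouse skin. The members are the 81 genes, of 15106 in the deposited count table, whose symbols carry the stems of the nuclear-encoded subunit families: Nduf with a, b, c, s or v and a number, Sdha to Sdhd, Uqcr, Cox4 to Cox8, and Atp5. Symbols of annotated pseudogenes were left out. Complex I (NADH dehydrogenase) contributed 34 genes, complex II (succinate dehydrogenase) 4, complex III (cytochrome bc1) 8, complex IV (cytochrome c oxidase) 18 and complex V (ATP synthase) 17. The stems also caught a few genes that are no structural subunits: Atp5s, related to factor B of ATP synthase, Atp5sl, and Cox7a2l, a factor of respiratory supercomplexes. The protein of Atp5sl is now classed with assembly of the membrane arm of complex I. Atp5s and Atp5sl are both counted with complex V here. Another 4 genes of these families that the mouse annotation holds, Ndufs5, Cox8c, Cox7b2 and Atp5mpl, are not among the members, and neither are the subunits encoded by mitochondrial DNA.

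Oxidative phosphorylation takes electrons from NADH and succinate through complexes I to IV to oxygen, pumps protons across the inner mitochondrial membrane, and lets ATP synthase use the return flow to make ATP. The complexes join subunits from the nuclear and the mitochondrial genome, and several nuclear subunits have isoforms that are largely confined to muscle, brown fat, testis or hypoxic cells. In T cells, regulatory cells are known to draw more on mitochondrial respiration and activated effector cells more on glycolysis.

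The series compares regulatory T cells (Tregs, 4 libraries), suppressive CD4 T cells marked by FOXP3, with effector T cells (Teffs, 2 libraries). Both were sorted by flow cytometry from the skin of FOXP3-GFP mice aged 6 weeks, whose cells report FOXP3 by green fluorescence. All libraries share this strain, tissue and age, and the labels give no treatment. Whether each library came from its own animal is not stated in the labels, so p-values measure the spread between these libraries, which may be technical. Counts in genes were 4902126 to 7468778 per library. The number of genes with counts was 9602, 9838, 12605 and 11074 in Treg 1 to Treg 4, and 13197 and 11894 in Teff 1 and Teff 2. Foxp3 stood at 103 to 232 CPM (counts scaled to a common library size) in the Treg libraries and at 11.2 and 7.16 CPM in the Teff libraries. Markers of other skin cells were unevenly spread: the 6 fibroblast markers summed to 1972 CPM in Treg 3 and 176 CPM in Teff 1, against 3.85 to 8.29 CPM in the other 4 libraries, and the 4 keratinocyte markers found summed to 560 CPM in Treg 3, 89.9 CPM in Teff 1, 38.1 CPM in Teff 2 and at most 20.7 CPM elsewhere. Some sums followed the groups. CD8 T cell markers were at 142 and 93.5 CPM in the Teffs and 0.18 to 65.5 CPM in the Tregs. Endothelial markers were at 84.8 and 121 CPM against 16.0 to 65.4 CPM, and gamma-delta marker Cd163l1 at 8.18 and 14.9 CPM against 0. Macrophage and dendritic cell sums overlapped, at 109 to 507 CPM in Tregs and 264 and 188 CPM in Teffs. The part of these cells in the member values was not tested. In sorted bulk samples, fewer cells of a type and less RNA per cell cannot be told apart.

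No OXPHOS member passed the test between Tregs and Teffs. Of the 81 members, 77 passed the filter on low counts, and edgeR's quasi-likelihood test called 0 of them when the Benjamini-Hochberg adjusted p had to be under 0.05. The background was low as well, with 0.0425% of 11775 tested genes called. At an unadjusted p under 0.05 the test found 1 member, Atp5s, against 4.73% of all tested genes. DESeq2 called 0 of the 76 members to which it gave an adjusted p, while calling 2.08% of all genes, and found 0 members at an unadjusted p under 0.05. Limma-voom called 0 members, with 0.0255% of genes called, and found 1 member at an unadjusted p under 0.05. In the authors' deposited table, 0 members had an FDR under 0.05, against 0.285% of all genes, and 1 had a p-value under 0.05. At unadjusted p-values, the share over all genes was counted for edgeR alone. The unadjusted counts from DESeq2, limma-voom and the deposited table therefore have no background beside them.

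Fold changes of the members lay close to 0. Their median log2 fold change, Treg minus Teff, was -0.01, with quartiles at -0.22 and 0.23, against a median of 0.07 and quartiles of -0.52 and 0.69 over all tested genes. Positive values were found for 37 members and negative values for 40, and the median turned to 0.11 without Treg 1 and to 0.13 without Teff 1. With upper-quartile scaling it was -0.12, while the median of all genes moved by more than 0.1, to -0.04. Within 1 log2 unit of 0 lay 73 of the 77, or 94.8%, compared with 68.1% of all tested genes. All tested genes were not matched to the members in level. A library at 0 counts was found for 33.4% of them, against 4 of the 77 members. The fold changes of the members are point estimates, and their intervals were wide. The 95% interval lay within 2 log2 units of 0 for 51 members but within 1 unit only for Cox4i1 and Uqcrc2. The data therefore bound large changes for most members and leave changes of up to 2-fold unresolved for all but those 2 genes.

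**Figure D1:**
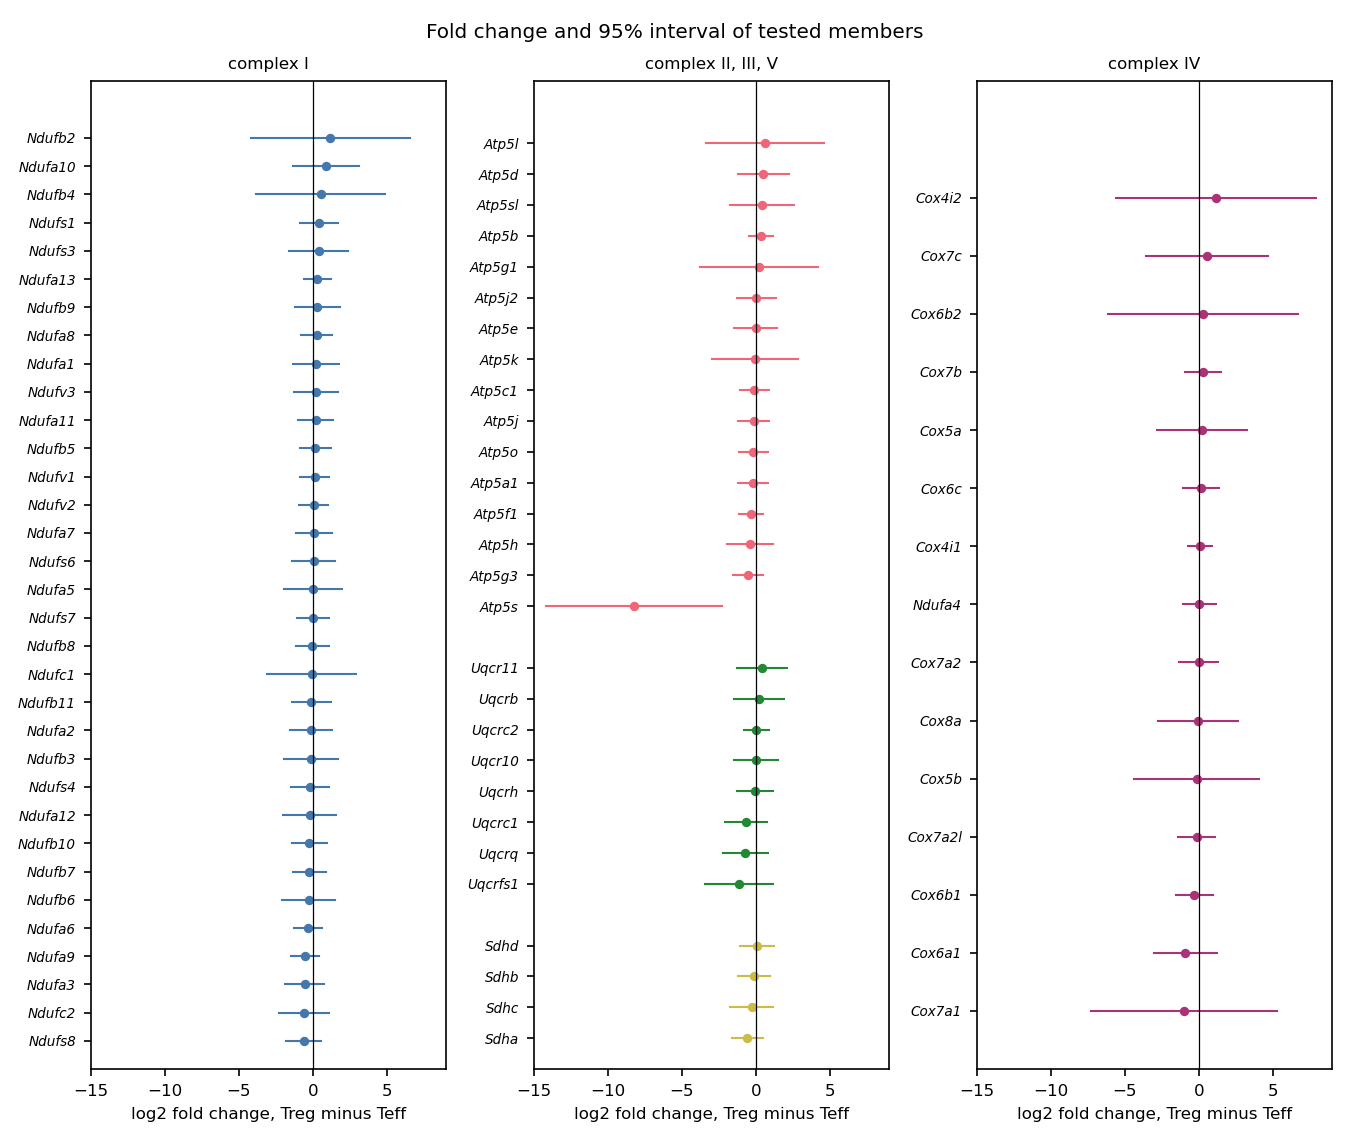
Log2 fold change (Treg minus Teff) of tested members with its 95% interval from edgeR, by complex (blue I, yellow II, green III, purple IV, red V). Every interval shown except that of Atp5s crosses 0, and the widest belong to genes with few counts such as Cox4i2, Cox7a1 and Cox6b2.

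The summed level of all members overlapped between the groups. Treg 1 to Treg 4 reached 6848, 8173, 8706 and 8721 CPM, and the Teffs 9519 and 7729 CPM. The Treg values spanned both sides of Teff 2 and all lay below Teff 1. The means were 8112 ± 880 CPM (SD, n = 4) and 8624 ± 1266 CPM (SD, n = 2), a ratio of 0.941, and the exact permutation test of the difference gave p = 0.60 (two-sided, smallest p possible 0.0667). As a share of gene counts, members took from 0.625% (Wilson 95% interval 0.619 to 0.631) in Treg 1 to 0.965% (0.958 to 0.972) in Teff 1. Only counting error enters these intervals (PCR duplicates are not separate molecules), and the libraries differed by far more than that.

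By complex, the ratio of group means was 0.977 for complex I, 0.815 for complex II, 0.874 for complex III, 0.975 for complex IV and 0.959 for complex V. The exact permutation p of the summed CPM was between 0.40 (complex II) and 0.933 (complex IV) over these 5 sums, before any adjustment. Complex II varied most between libraries, from 634 CPM in Treg 2 to 1203 CPM in Teff 1, and complex I least, from 2464 CPM in Treg 1 to 3329 CPM in Teff 1. Median log2 fold changes were 0.03, -0.20, -0.02, 0.05 and -0.07 for complexes I to V. The sign of this median was not stable for complexes I, III, IV and V: it turned when single libraries were left out or the scaling was changed.

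**Figure D2:**
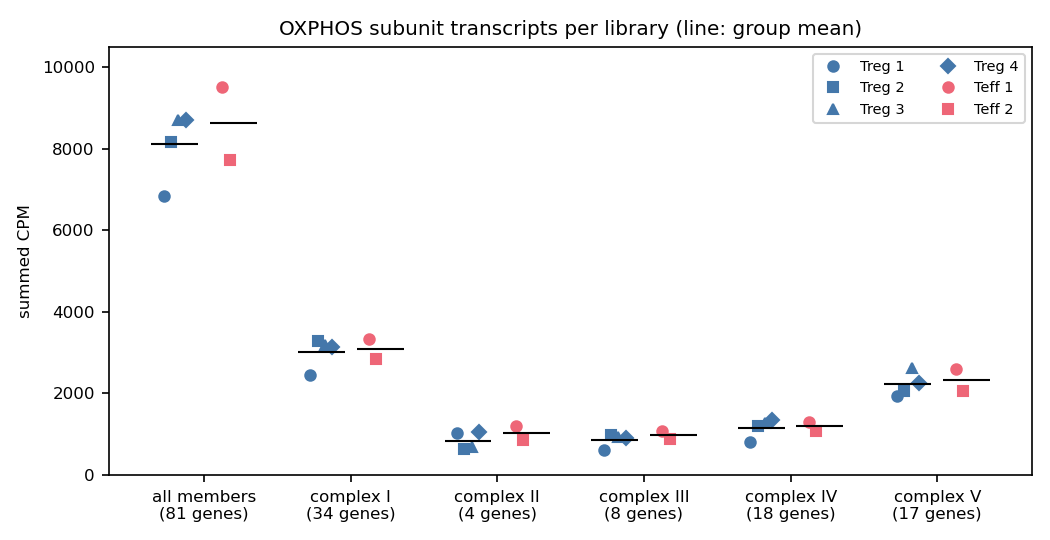
Summed CPM of the members in each library, for all members and by complex, with Treg libraries in blue, Teff libraries in red and group means as lines. Treg 1 is the lowest library for all members and for complexes I, III, IV and V, and the groups overlap in every sum.

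The groups separated for few members. For 0 of the 77 members was every Treg value higher than both Teff values, against 5.51% of tested genes, and for 4 members every Treg value was lower (5.19%), against 9.48% of tested genes. Those 4 were Uqcrq, Ndufa3, Uqcrfs1 and Atp5s. The count depended on single libraries. Without Teff 2, 17 members lay below (22.1%, against 17.1% of genes), without Treg 4 it was 10 (13.0% against 14.5%), and without Treg 3 it was 8 (10.4% against 15.9%). Without Treg 1, 12 members lay above both Teffs (15.6% against 9.76%), and without Teff 1, 7 lay above Teff 2 (9.09% against 10.2%).

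Complex I takes electrons from NADH. Ndufv1 (chr19:4007384-4012806, GRCm38), which binds the flavin that NADH reduces, had levels of 220, 124, 282 and 163 CPM in the Tregs (always in the order 1 to 4) and of 198 and 165 CPM in the Teffs. Both Teff values fell inside the Treg range, and the log2 fold change was 0.12 ± 0.43 (SE). Ndufs1 (chr1:63143596-63176833), which carries iron-sulfur clusters of the electron path, was at 416 CPM in Treg 1 but at 148, 164 and 130 CPM in the other Tregs and at 169 and 154 CPM in the Teffs. Treg 1 alone stood apart.

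Ndufs8, another iron-sulfur subunit of complex I, gave -0.62 ± 0.52, with Tregs at 43 to 97.9 CPM and Teffs at 126 and 95 CPM, so that Treg 1 overlapped the Teffs.

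Among accessory subunits of complex I, Ndufa3 (chr7:3617373-3620327) was at 30.6, 102, 78.7 and 89.9 CPM in the Tregs and at 115 and 104 CPM in the Teffs. All Tregs were lower, 3 of them by little, and the log2 fold change of -0.54 ± 0.58 was smaller than its error. Ndufa10 had the opposite sign at 0.92 ± 0.97, which rested on 101 CPM in Treg 2, with the other Tregs at 16.6 to 42.6 CPM and the Teffs at 27.9 and 22.4 CPM. Ndufb2 reached 18.4 CPM in Treg 3 and 0.285 to 3.96 CPM in all other libraries, which put its fold change at 1.19 ± 2.32. Per kb of transcript, Ndufa6 had the highest level of complex I, at 218 CPM per kb.

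Complex II feeds electrons from succinate, and its catalytic Sdha (chr13:74322254-74350280) holds a flavin. Sdha was at 564, 197, 274 and 374 CPM in the Tregs and at 615 and 424 CPM in the Teffs. Treg 1 lay between the Teffs and the other Tregs below both, with a log2 fold change of -0.56 ± 0.45. Sdhb, the iron-sulfur subunit, was at 108 to 308 CPM in Tregs and 259 and 192 CPM in Teffs (-0.12 ± 0.48). Membrane anchors Sdhc and Sdhd gave -0.28 ± 0.64 and 0.09 ± 0.50. In Treg 1 these went opposite ways, since Sdhd was highest there of all libraries (320 CPM) and Sdhc lowest (30.3 CPM).

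Complex III passes electrons from ubiquinol to cytochrome c. Its Rieske iron-sulfur protein Uqcrfs1 (chr13:30540308-30545362) was at 22.9, 10.2, 21.7 and 16.5 CPM in the Tregs and at 24.95 and 53.4 CPM in the Teffs. The groups did not overlap, though Treg 1 and Treg 3 came close to Teff 1. The log2 fold change was -1.13 ± 0.99, with a 95% interval of -3.42 to 1.15. Uqcrq (chr11:53427922-53430831), a small subunit near the ubiquinone site, was at 22.2, 71.4, 95.7 and 102 CPM in the Tregs and at 133 and 102 CPM in the Teffs. Treg 4 and Teff 2 were nearly equal, and the fold change was -0.69 ± 0.65.

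The core protein Uqcrc1 ranged from 45.3 CPM in Treg 4 to 227 CPM in Treg 2, with Teffs at 255 and 211 CPM (-0.64 ± 0.61). Uqcr11, a small subunit, had the most positive fold change of complex III, 0.42 ± 0.73, although Treg 1 at 22.9 CPM was the lowest library. Uqcrb, another small subunit, gave 0.22 ± 0.72. Uqcrh, the hinge protein that docks cytochrome c1, was the highest of the complex per length at 366 CPM per kb. Tregs averaged 198 ± 92.7 CPM (SD, n = 4), and the mean of the Teffs was 204 ± 18.1 CPM (SD, n = 2).

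In complex IV, the terminal oxidase, Cox4i1 (chr8:120668222-120674207) was the most abundant member per length, at 690 CPM per kb. It was at 351, 614, 498 and 648 CPM in the Tregs and at 485 and 488 CPM in the Teffs. Its log2 fold change of 0.12 ± 0.35 had the smallest error of all members, with a 95% interval of -0.69 to 0.93. Cox5a, whose product sits beside it, was far lower, at 4.63 to 24.6 CPM in Tregs and 13.5 and 15.3 CPM in Teffs (0.23 ± 1.33).

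Cox6a1 and Cox8a, small subunits around the catalytic core, varied widely within both groups. Cox6a1 was at 72.3, 16.9, 152 and 23.2 CPM in the Tregs and at 189 and 59.2 CPM in the Teffs (-0.90 ± 0.93). Cox8a was at 29.6, 21.7, 66.6 and 6.12 CPM and at 52.9 and 11.6 CPM (-0.05 ± 1.18). Both were highest in Treg 3 and Teff 1, the 2 libraries with the most fibroblast and keratinocyte marker counts. The part of other cells in these values was not tested.

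Isoform pairs showed a broad form at high and a tissue-restricted form at low counts. Cox6a2 (chr7:128205435-128206387), the heart and muscle form of subunit 6a, had 52 counts in Teff 1 and 0 in the other 5 libraries. Cox4i2, the form induced by low oxygen in lung and elsewhere, was at 5.89, 4.84 and 2.38 CPM in Treg 3, Treg 4 and Teff 1 and at 0 in the others. Cox6b2, known from testis, was found in the same 3 libraries at 1.91, 5.55 and 3.04 CPM. Cox7a1, the muscle and brown fat form, was found only in Treg 3 and Teff 1, at 2.60 and 2.64 CPM.

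Cox8b, also a muscle and brown fat form, had 2 counts, both in Treg 3. Ndufa4l2, the hypoxia-induced relative of Ndufa4, stayed at or below 1.58 CPM. The broad forms Cox6b1 (-0.30 ± 0.53), Cox7a2 (0.00 ± 0.57) and Ndufa4 (0.05 ± 0.48) had counts in every library, as had Cox7b (0.29 ± 0.53) and the supercomplex factor Cox7a2l (-0.13 ± 0.55). Of the 6 skeletal muscle markers, 5 were in the table. They summed to 1.26, 12.8, 35.0 and 30.3 CPM in Treg 1 to Treg 4 and to 35.6 and 17.0 CPM in the Teffs. Myh4 was at 0 in every library except Teff 1 (0.132 CPM). The 2 brown fat markers found, of 3, summed to 0 to 16.0 CPM in Tregs and to 13.7 and 0 CPM in Teffs. Treg 3 and Teff 1 had the highest muscle marker sums, followed by Treg 4, and the part of other cells in the isoform counts was not tested.

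**Figure D3:**
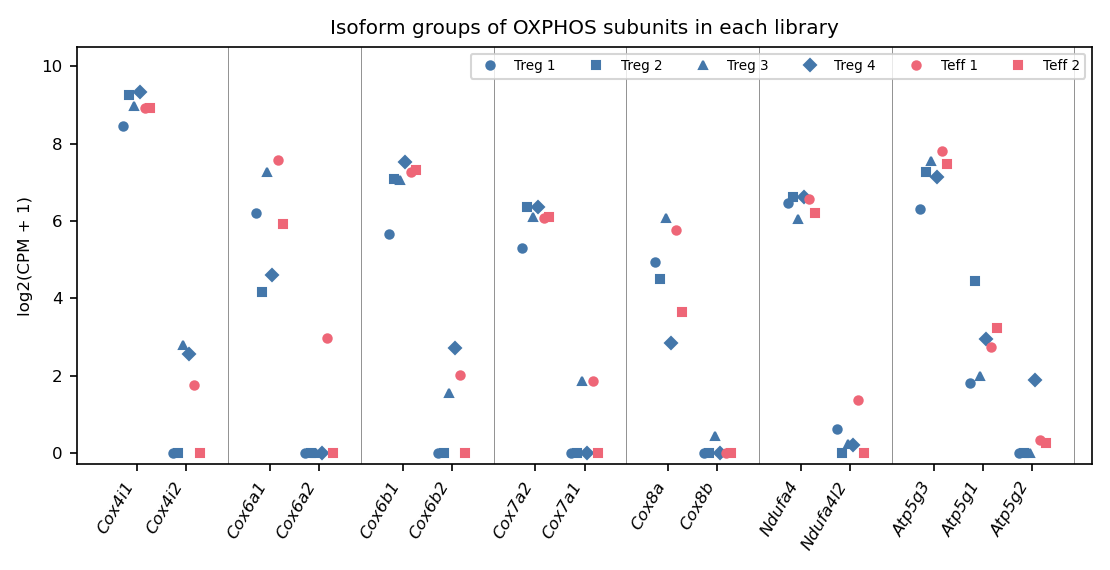
Level of isoform groups in each library as log2(CPM + 1), with Treg libraries in blue and Teff libraries in red. Broad forms (Cox4i1, Cox6a1, Cox6b1, Cox7a2, Cox8a, Ndufa4, Atp5g3) and Atp5g1 are detected in all 6 libraries, while the restricted forms and Atp5g2 sit at 0 in at least 1 library. Atp5g1 and Atp5g2 share much of their sequence with other genes, so their counts are uncertain.

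ATP synthase carries its catalytic sites on the alpha and beta subunits. Atp5a1 (chr18:77773729-77782869), the alpha subunit, was at 532, 317, 720 and 305 CPM in the Tregs and at 636 and 436 CPM in the Teffs (-0.19 ± 0.44). Atp5b (chr10:128083273-128090391), the beta subunit, was at 354, 413, 616 and 411 CPM and at 391 and 310 CPM (0.36 ± 0.36). Neither gene separated the groups, and their fold changes had opposite signs. Atp5c1, the gamma subunit of the rotor, had the highest level of the complex per length, at 306 CPM per kb, and gave -0.09 ± 0.42.

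Atp5d, the delta subunit, was at 25.4 CPM in Treg 1, 79.3 to 179 CPM in the other Tregs and 74.7 and 74.5 CPM in the Teffs (0.50 ± 0.75). The membrane ring of ATP synthase is built from 1 protein that Atp5g1, Atp5g2 and Atp5g3 all encode. Atp5g3 held most of the counts given to these genes, at 78.8 to 187 CPM in Tregs and 224 and 177 CPM in Teffs (-0.52 ± 0.44). Atp5g1 was at 2.52 to 20.6 CPM, and Atp5g2 at 0 in 3 Tregs and at most 2.71 CPM elsewhere. Of 50-base transcript windows, 100% occurred in another gene for Atp5g2, 65.5% for Atp5g1 and 0% for Atp5g3. Reads with several alignments were not added to genes, so these counts do not settle which of the genes is expressed most.

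Atp5s (chr12:69724950-69744660) was the 1 member below an unadjusted p of 0.05. It had 0 counts in all 4 Treg libraries and 58 and 22 counts in Teff 1 and Teff 2, or 7.66 and 4.26 CPM. Pooled by group, the Teffs stood at 6.28 CPM, or 51.5-fold above a floor of 3 counts over the Treg group. That ratio takes in counting error alone and leaves out the spread between libraries. The log2 fold change of -8.22 ± 2.30 had a 95% interval of -14.1 to -2.29, whose near end is a smaller difference than 51.5-fold. This fold change depends on the prior count, and its Benjamini-Hochberg adjusted p in edgeR's quasi-likelihood test was 0.721. The related Atp5sl was present in every library, at 13.5 to 108 CPM.

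Levels differed widely between subunits that the complexes need in fixed proportion. Per kb of transcript, mean CPM ran from 1.20 for Atp5g2 to 690 for Cox4i1 among the 72 structural subunits. The lowest ones tended to share sequence with other genes. For each transcript, the share of 50-base windows that occur letter for letter in a transcript of another gene, pseudogenes included and on either strand, was counted. At least 25% of windows were shared in 10 of the 72 subunits, and their median level was 9.997 CPM per kb, against 127 CPM per kb in the 62 others. Of 7 subunits with a mean under 10 CPM, 6 were among those 10 (Atp5g1, Atp5g2, Atp5l, Cox5b, Cox7c and Ndufb4), and Ndufb2 was the exception with 0% shared. Over all genes with windows, 4.80% shared that much, compared with 12.3% of the 81 members. The window length mattered, and the read length is not known. With windows of 100 bases, 6 subunits shared at least 25%, among them 5 of the 7 with a mean under 10 CPM. Cox5b then shared 7.79%.

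The coding stretches below show how close these copies are. They are, for 3 low subunits, the first coding stretch that the largest number of other genes contain, read from the GENCODE M21 transcripts on the gene's strand, 5′ to 3′. Capitals mark the bases found unchanged in other genes, with flanking coding bases in lower case.
Atp5l: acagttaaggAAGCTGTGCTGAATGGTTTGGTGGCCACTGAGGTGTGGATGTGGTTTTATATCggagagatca
Cox7c: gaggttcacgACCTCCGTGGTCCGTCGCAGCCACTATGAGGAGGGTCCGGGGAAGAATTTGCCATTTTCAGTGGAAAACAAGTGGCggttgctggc
Atp5g1: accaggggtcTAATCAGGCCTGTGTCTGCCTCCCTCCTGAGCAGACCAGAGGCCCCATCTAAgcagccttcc

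The capitals of Atp5l (chr9:44912557-44920742, minus strand) occur in 9 pseudogenes, and those of Cox7c (chr13:86044816-86046904, minus strand) and Atp5g1 (chr11:96068852-96075670, minus strand) in 2 pseudogenes each. Windows within the coding sequence were shared at 100%, 100% and 99.7% for these genes. The deposited table keeps a separate row for reads with several alignments, which held 61.2% to 66.2% of each column's entries, and such reads were not added to genes. Counts of these subunits are uncertain for that reason, and how much of their low level comes from shared sequence was not tested. Their fold changes had errors of 1.72 for Atp5l (log2 fold change 0.62), 1.79 for Cox7c (0.54) and 1.72 for Atp5g1 (0.23). Both groups were counted the same way.

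**Figure D4:**
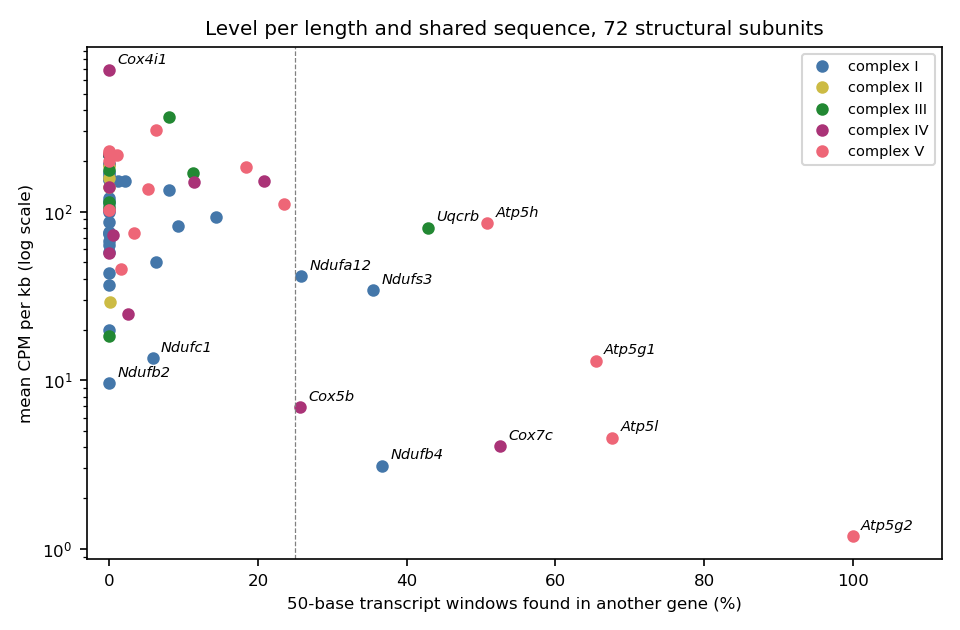
Mean CPM per kb of transcript (log scale) of the 72 structural subunits against the percentage of 50-base transcript windows that occur in another gene, coloured by complex, with the 25% line dashed. Atp5g1, Atp5g2, Atp5l, Cox5b, Cox7c and Ndufb4 lie to the right of the line and at 13.1 CPM per kb or lower.

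Treg 1 stood apart from the other libraries in these genes. Over the 69 members with at least 10 counts in every library, the median deviation from the gene's mean, in log2(CPM + 1), was -0.44 in Treg 1 and between -0.03 and 0.24 in the other 5 libraries. Treg 1 was the lowest library for 37 of the 69 members (53.6%), compared with 23.0% of the 6571 genes chosen the same way. The deficit was larger in short transcripts. The 34 members with transcripts under 809 bases had a median deviation of -0.71 in Treg 1, and the 35 longer ones -0.21. All genes split at the same length gave -0.45 for 300 short and 0.12 for 6230 long transcripts. This split was made after seeing the data. Length moved with the value in members and in genes at large, and its part in the result was not tested.

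Leaving Treg 1 out raised the ratio of summed CPM to 0.989 and the median log2 fold change of the members to 0.11, and no member was called.

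**Figure D5:**
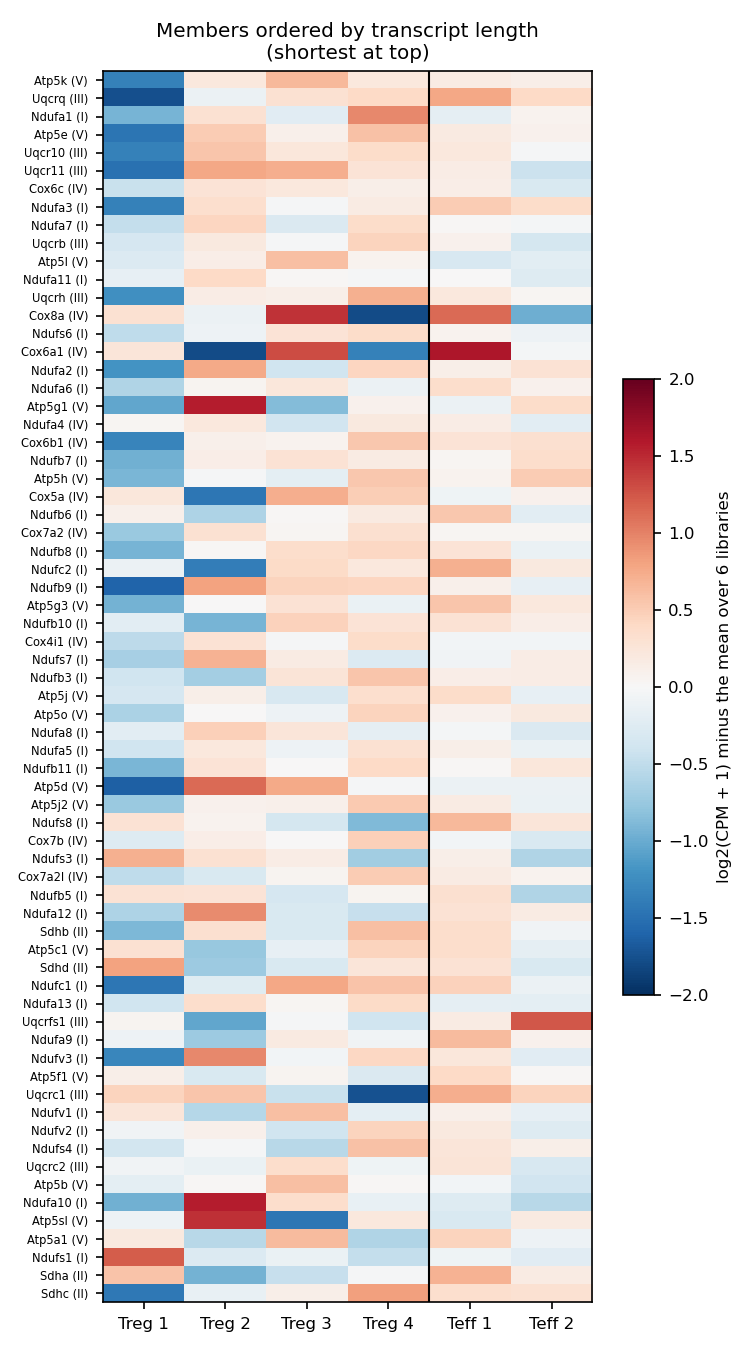
Deviation of log2(CPM + 1) from each gene's mean over the 6 libraries, for members with at least 10 counts in every library, shortest transcripts at the top and complex in brackets. The blue column of Treg 1 is concentrated in the upper, shorter part, and long transcripts such as Ndufs1 and Sdha are red there.

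Spread between libraries was lower in members than in other genes at low and middle levels. At a mean of 50 to 200 CPM, the median biological coefficient of variation was 0.543 for 46 members and 0.610 for 3532 genes. At 10 to 50 CPM it was 0.813 for 13 members and 1.17 for 4407 genes, and above 200 CPM it was 0.431 for 8 members and 0.426 for 996 genes. These values are a description with no test.

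Genes that work with the complexes gave 0 calls as well. Of 48 assembly factors, 43 were tested and 19 had positive and 24 negative fold changes, with a median of -0.14 and 0 called. Among those with a mean of at least 10 CPM, the largest differences were in Ecsit (-1.66 ± 2.11) and Tmem126b (-0.98 ± 1.84), both of complex I assembly, and in Foxred1 (-1.21 ± 1.47), also of complex I. In Treg 2, Ecsit and Foxred1 had 1 count each and Tmem126b had 0, while all 3 were present in both Teffs. Treg 2 had counts in 9838 genes, against 13197 in Teff 1 and 11894 in Teff 2. At a mean of 10 to 50 CPM, 33.6% of tested genes had a library at 0. The part of detection in these values was not tested. The median of this list turned to 0.12 without Teff 1.

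A list of 30 genes took in electron carriers, translocators and the ATP synthase inhibitor Atpif1. It also held genes of the complexes that the stems do not catch, such as Cyc1 of complex III and Usmg5 and 2010107E04Rik of ATP synthase. Of these 30 genes, 28 were tested, with a median of -0.32, 8 positive, 20 negative and 0 called. Their summed level was 2976 to 3853 CPM in the Tregs and 4236 and 4302 CPM in the Teffs, without overlap. Ucp2, an uncoupling protein family member named after its values were seen, carried this separation. It was at 1266, 1001, 1128 and 1372 CPM in the Tregs and at 2014 and 2079 CPM in the Teffs, with a log2 fold change of -0.78 ± 0.28 and a Benjamini-Hochberg adjusted p of 0.779 in edgeR. Without Ucp2, a sum added after seeing the data, the list stood at 1710 to 2481 CPM in the Tregs and at 2222 and 2224 CPM in the Teffs, and the groups overlapped. Among genes with a mean of at least 10 CPM, the largest fold changes were in 3 others. Coq7 of ubiquinone synthesis gave 1.24 ± 2.06, the phosphate carrier Slc25a3 0.83 ± 0.63, and Etfa, which passes electrons from fat oxidation, -0.78 ± 1.02.

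The 18 tested genes of the citric acid cycle and pyruvate dehydrogenase had a median of -0.04, with 7 positive, 11 negative and 0 called. Among genes with a mean of at least 10 CPM, the largest values were -0.90 ± 1.32 for Pdhx, 0.76 ± 0.47 for Idh3g and 0.62 ± 0.45 for Ogdh. Of the 27 tested genes of mitochondrial biogenesis and import, 11 were positive and 16 negative, with a median of -0.04 and 0 called. The summed level of this list was 1162 to 1238 CPM in the Tregs and 1059 and 1053 CPM in the Teffs, without overlap. The sums of the assembly factors and of the citric acid cycle genes overlapped. Tomm70a, an import receptor, was above both Teffs in all Tregs, at 108, 164, 44.9 and 76.6 CPM against 34.9 and 27.1 CPM. Its log2 fold change of 1.67 ± 0.69 had a Benjamini-Hochberg adjusted p of 0.981 in edgeR. The chaperone Hspa9 gave 1.17 ± 0.64 and the import motor gene Timm44 0.98 ± 0.59.

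Other large complexes, taken by symbol pattern, gave medians of -0.14 (86 cytosolic ribosomal proteins), -0.18 (76 mitochondrial ribosomal proteins) and -0.23 (38 proteasome subunits), each with 0 called. The OXPHOS median of -0.01 was the nearest to 0 of these 4 sets, and no test of the difference was made. Mitochondrial ribosomal proteins summed to 2741 to 2897 CPM in Tregs and to 3295 and 3156 CPM in Teffs, without overlap. Proteasome sums were 4729 to 5468 CPM in Tregs and 6910 and 5863 CPM in Teffs, also without overlap. Cytosolic ribosomal sums overlapped, at 6619 to 12630 CPM in Tregs and 10384 and 10794 CPM in Teffs. These sums were not tested.

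Upstream sequence was described for the 67 members with an entry in the RefSeq promoter table (GRCm38.p6, 250 bases before to 50 after the start). Both strands were searched for the core motifs of nuclear regulators of respiratory genes. The NRF1 core (GCGCATGC or GCGCAGGC) was found in 17 members (25.4%), against 7.66% of 27025 genes. Those 27025 include genes outside the count table and were not matched to the members in level. The ETS core bound by GABPA (CCGGAAG) was found in 16 (23.9% against 9.93%), and the YY1 core (AAGATGGCG) in 8 (11.9% against 1.64%). A match is not a bound site, and these libraries hold no binding data. The following stretches, from Sdha (chr13:74350248-74350378, minus strand) and Uqcrh (chr4:116075071-116075120, minus strand), show the motif in capitals for the member of highest CPM that had it before the start. The capitals in Uqcrh are the reverse complement of the ETS core.
Sdha: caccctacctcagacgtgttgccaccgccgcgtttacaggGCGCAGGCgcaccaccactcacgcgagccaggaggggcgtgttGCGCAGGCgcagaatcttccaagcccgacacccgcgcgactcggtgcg
Uqcrh: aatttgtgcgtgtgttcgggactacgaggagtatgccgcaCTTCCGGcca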

How the data were processed

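RNA-seq libraries of skin Tregs (4) and Teffs (2) were analysed from 1 table of raw counts per gene, which the authors deposited with their own comparison. That comparison holds log2 fold changes and log2 CPM as deposited log2 values, and p-values with FDR as deposited p-values, per the file headers. According to the submitters' processing notes, HTSeq 0.6.1 and SAMtools 0.1.19.0 were used on mm10, with the aligners Bowtie2 2.1.0.0 and TopHat2 2.0.12 and the base caller software CASAVA 1.8.2. For annotation, read length and strand setting, the sources used here give nothing. The 3 rows that name no gene (88.0% to 90.2% of column entries) were left out.

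Counts were tested with edgeR 4.0.16 (R 4.3.3): filterByExpr with a smallest count of 10, TMM scaling (factors 0.913 to 1.05) and a quasi-likelihood test of group over 6 libraries, coded Treg minus Teff. CPM are on TMM-scaled sizes, and 3 counts correspond to 0.397 to 0.581 CPM. The members and lists were chosen with earlier results of these data known. Named genes were: any called member; per complex the 2 most positive, the 2 most negative and the highest per length; fixed core subunits and isoform groups; up to 4 members per direction whose groups did not overlap; and up to 3 genes per pathway list with a mean of at least 10 CPM. Values of 1 member that this rule names are not reported here, singly or in the figures; it stays in all counts, sums and medians. Other genes named were chosen after their values were seen. Lengths, positions and shared windows come from GENCODE M21 (all 81 members matched, 1 by an older name; 1 transcript per gene, windows every 5 bases). The fitting script was tested on simulated data. Alternatives were DESeq2 1.42.0, limma-voom (limma 3.58.1), other scalings and filters, left-out libraries, a replicate block and subsets of members.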

Additional observations from a re-analysis of the deposited data

Results flagged for a closer look

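In the 4 Treg libraries, 6 of 48 sets of values (named members and sums) had 1 library whose distance to its nearest neighbour took up most of the group's range (Dixon's test at 95%). Chance flags about 1 in 20 sets of continuous values. That rate does not hold here, since members were named partly for extreme values, and since Cox7a1, Cox8b and Atp5g2 were at 0 in 3 Tregs, which flags any value above 0 in the other. Treg 3 was far above the others for Ndufb2 (18.4 CPM), Cox7a1 (2.60 CPM) and Cox8b (0.347 CPM). Treg 1 was far above for Ndufs1 (416 CPM) and far below for the summed CPM of complex I (2464 CPM). Treg 4 was far above for Atp5g2 (2.71 CPM).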

How the results depend on the processing

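The count of 0 called members held under every alternative: DESeq2, limma-voom, an adjusted p of 0.01, DESeq2 size factors, upper-quartile scaling, library size alone, no filter, a mean of at least 10 CPM, each library left out, and the replicate block. Over all genes, edgeR's 5 calls became 19 with no filter, 218 with DESeq2, 3 with limma-voom, 0 at an adjusted p of 0.01, 0 to 2 with a library left out, and 1 with the replicate block. The same 4 libraries without the block, an alternative added after seeing the data, gave 0. Whether libraries with the same replicate number belong together is not stated in the labels. Deviations of same-numbered libraries correlated at -0.04 and 0.15. With 2 Teff libraries, the deviations of Teff 1 and Teff 2 mirror each other, so these correlations cannot decide the pairing. The block leaves out Treg 3 and Treg 4. With the replicate block, medians of log2 fold changes were -0.31 for members, -0.28 for complex I, -1.11 for assembly factors, -0.99 for electron carriers, -0.19 for the citric acid cycle, -0.58 for biogenesis and import and -0.49 for all genes. In the same order, the same 4 libraries without the block gave -0.26, -0.13, -0.26, -0.78, -0.01, -0.32 and -0.05, so that most of the shift from the median over 6 libraries came with the 4 libraries for members and electron carriers, and with the block for assembly factors, the citric acid cycle and all genes. The member median was -0.14 to 0.13 with a library left out, -0.12 with upper-quartile scaling, and -0.14 with limma-voom (added later). The ratio of summed CPM was 0.838 to 1.04 with a library left out: 0.838 without Teff 2 and 1.04 without Teff 1. Of 38 named and tested members, 22 changed sign under at least 1 alternative, and 0 reached an adjusted p under 0.05. With 2 Teff libraries, the smallest error of a member's log2 fold change was 0.35 and the median error was 0.61. Changes under 2-fold were not detectable for most members. Larger changes could go uncalled as well, since a call needed an adjusted p under 0.05 over 11775 tested genes.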
